A study of Homo sapiens with 13 samples.

Results

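The 10 genes described here encode subunits of the 2 Polycomb repressive complexes: *EZH1*, *EZH2*, *EED*, *SUZ12* and *JARID2* of PRC2, and *RING1*, *RNF2*, *BMI1*, *CBX2* and *CBX7* of PRC1. They were taken by gene symbol and not by a cutoff on a measured value, though earlier results of these data were known. All 10 were found among the 56831 genes of both tables. RNA was sequenced in H82 and H146, established small cell lung cancer (SCLC) cell lines that the labels give as wild type. The groups were untreated H82 (3 libraries), H82 treated with FHD-286 (3 libraries), untreated H146 (3 libraries) and H146 treated with FHD-286 (4 libraries). FHD-286 is an allosteric inhibitor of the ATPases of the SWI/SNF chromatin remodeler, SMARCA4 and SMARCA2, and was given at 100 nM for 14 days. The labels name no vehicle control, and the control cells were cultured without drug. Nothing in the labels says that the libraries of a group came from separate cultures, so the *p* values measure only the spread between these libraries, which may be technical. The values are TPM, in which reads are divided by gene length and every library is brought to an equal sum. The sequencing depth cannot be read from TPM, so no counting interval is given.

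PRC2 methylates lysine 27 of histone H3. *EZH1* or *EZH2* is its catalytic subunit, *EED* and *SUZ12* complete its core, and *JARID2* is an accessory subunit that helps to bring it to chromatin. PRC1 ubiquitinates histone H2A through *RING1* or *RNF2*, each of which pairs with a PCGF protein such as *BMI1*, also called PCGF4, and canonical PRC1 binds the PRC2 mark through a CBX protein such as *CBX2* or *CBX7*. Polycomb keeps developmental and cell cycle inhibitor genes silent, and SWI/SNF is known to oppose it on chromatin. *EZH2* is known for its high expression in SCLC.

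Each line was fitted separately with limma on log2(TPM + 1); multiple testing was corrected by Benjamini-Hochberg (BH) over every gene that reached 1 TPM in 3 or more of the line's libraries. A gene is called lower or higher with treatment at an adjusted *p* under 0.05 (two-sided). All 10 subunits passed the filter in both lines. The whole distribution moved with treatment. The median log2 fold change of all genes tested was -0.56 in H82 and 0.25 in H146, and scaling the libraries by the median of ratios brought it to -0.14 and -0.02. Subunit calls and list counts are therefore given under both scalings where they differ. The mitochondrial share of TPM was 22.1% to 24.1% in untreated H82 and 12.3% to 14.9% with treatment, against 7.56% to 8.86% and 3.82% to 11.4% in H146. Of 6 neuroendocrine markers, 6 reached a group mean of 1 TPM in H82 and 5 in H146, where *NEUROD1* stayed below it. Summed TPM of 11 markers of other cell types was 4.10 to 5.14 in untreated H82 and 15.5 to 38.6 with treatment, with *CD3E* at 0 in both groups. In H146 the sum was 691 to 725 without and 290 to 414 with treatment, and *SFTPC* was at 0 in the untreated libraries. Most of that sum was *EPCAM*, listed as an epithelial marker, at 676 to 708 TPM without and 268 to 381 TPM with treatment. H146 is a cell line, so this *EPCAM* does not show that other cells were present, which was not tested. Treated H82 replicate 2 stood apart, with *EPCAM* at 32.8 TPM against 3.08 and 1.11 TPM in replicates 1 and 3, and *INSM1* at 296 TPM against 32.1 and 33.9 TPM. Treated H82 replicate 1 was the lowest treated library of that line for *CBX2*, *EED*, *SUZ12*, *JARID2* and *BMI1*, and the highest for *RING1*, *RNF2*, *EZH1* and *CBX7*. In bulk RNA, fewer cells of a type and less RNA per cell cannot be told apart, and the part of these shifts in the results was not tested.

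In H82, 3 subunits were called lower (*EZH1*, *SUZ12* and *JARID2*) and 2 higher (*EED* and *RING1*). Of all genes tested there, 45.5% were lower and 13.1% were higher. Under the median of ratios 2 subunits were lower (*SUZ12* and *JARID2*) and 4 higher (*EZH2*, *EED*, *RING1* and *RNF2*), against 32.9% and 24.2% of all genes. The median log2 fold change of the 10 subunits was -0.35. In H146, limma called 0 subunits lower, also at an unadjusted *p* under 0.05, and 5 higher (*EZH2*, *JARID2*, *RING1*, *RNF2* and *BMI1*), where 15.5% of all genes were lower and 32.5% were higher. Their median was 0.50. Under the median of ratios 1 subunit was lower (*EED*) and 3 higher (*JARID2*, *RNF2* and *BMI1*), against 25.1% and 21.3% of all genes. Treated and untreated libraries did not overlap for 9 of 10 subunits in H82, 5 below and 4 above the untreated ones, beside 67.8% of all genes, and for 6 of 10 in H146, all above, beside 52.9% of all genes.

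**Figure D1:**
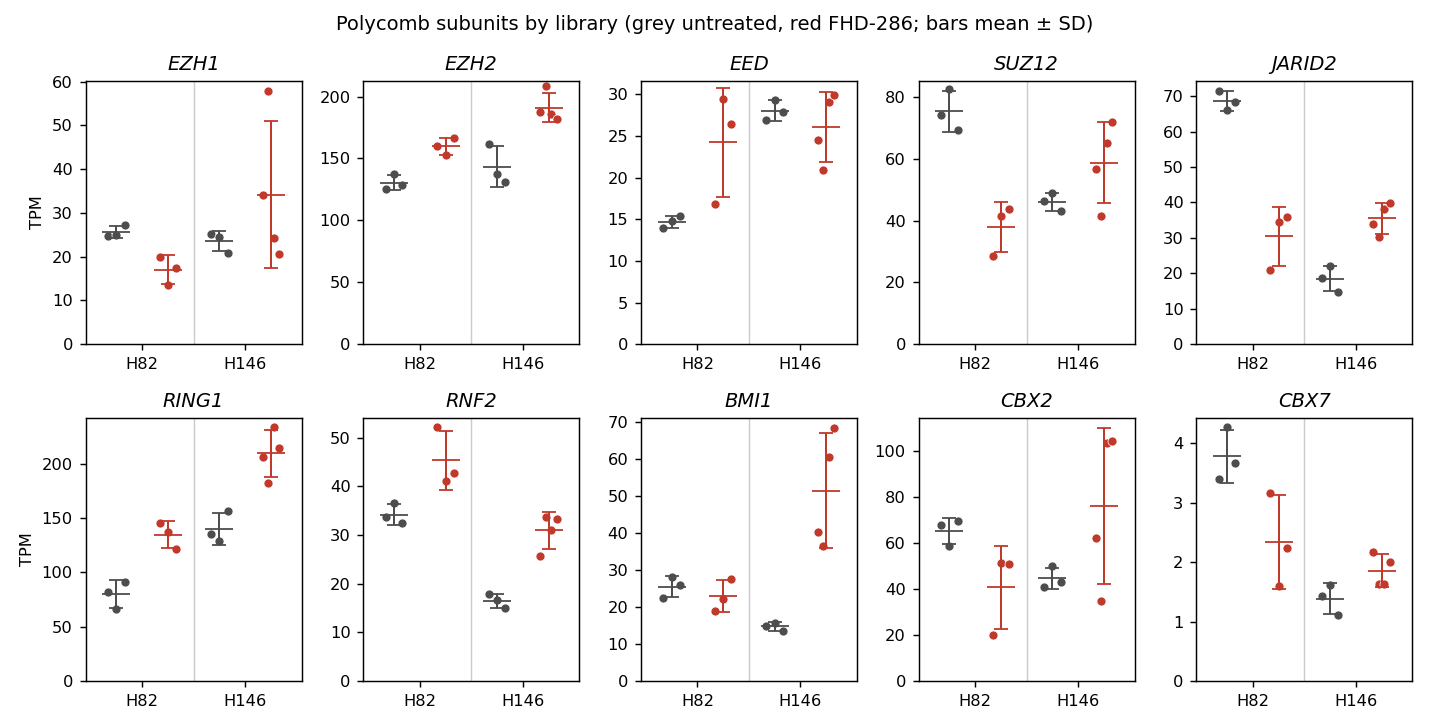
TPM of each Polycomb subunit in every library of H82 and H146, untreated in grey and FHD-286-treated in red, with the mean and SD as bars; each panel has its own axis from 0. Without overlap, treated H82 lies below untreated H82 for *EZH1*, *SUZ12*, *JARID2*, *CBX2* and *CBX7*, and above it for *EZH2*, *EED*, *RING1* and *RNF2*. Treated H146 lies above untreated H146 without overlap for *EZH2*, *JARID2*, *RING1*, *RNF2*, *BMI1* and *CBX7*.

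Promoter stretches are shown for the 3 subunits with a match to a searched motif that lay wholly before the start site. They were picked by this match and not by their RNA. On TPM, *SUZ12* was lower in H82, *BMI1* higher in H146, and *RING1* higher in both lines. The stretches come from RefSeq on GRCh38.p14, read 5′ to 3′ on the plus strand, on which all 3 genes lie. Capitals mark the motif found: an E2F element (TTTCCCGC) in *SUZ12*, 189 bases before the start site, an E-box (CACGTG) in *BMI1*, 70 bases before it, and an ETS element (CGGAAGTG) in *RING1*, 10 bases before it.
*SUZ12*, chr17:31936757-31936906: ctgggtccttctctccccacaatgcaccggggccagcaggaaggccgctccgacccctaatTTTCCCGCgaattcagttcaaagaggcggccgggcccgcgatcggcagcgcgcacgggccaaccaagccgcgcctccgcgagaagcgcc
*BMI1*, chr10:22320949-22321098: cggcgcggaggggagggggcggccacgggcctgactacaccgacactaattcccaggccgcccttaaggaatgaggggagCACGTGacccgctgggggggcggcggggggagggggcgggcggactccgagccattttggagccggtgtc
*RING1*, chr6:33208350-33208499: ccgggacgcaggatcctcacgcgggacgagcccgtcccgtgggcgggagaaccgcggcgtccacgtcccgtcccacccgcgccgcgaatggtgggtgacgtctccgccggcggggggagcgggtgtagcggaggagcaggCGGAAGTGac

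Windows of 300 bases around the start, 250 before and 50 from it on, were matched for 9 of the 10 subunits, 12 windows in all. On either strand, TTTCCCGC was in 1.63% of all 35116 promoter windows, CACGTG in 7.26% and CGGAAGTG in 4.0%. Each was in 1 of the 12 Polycomb windows. A further E2F element, TTTGGCGC, was in 0.652% of all windows and in 1 of the Polycomb windows, that of *EZH2*. It did not lie wholly before the start there and is not printed. Such a match is a description of the letters and says nothing on binding. The Polycomb windows shared a high content of G and C, with a median of 73.8% (lowest 52.3%, *EED*) against 58.7% over all windows, and a median of 40.5 CpG pairs against 14.

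Each catalytic subunit passed the threshold in 1 line, *EZH2* in H146 and *EZH1* in H82, and neither did so under the median of ratios there. *EZH2* (chromosome 7, 148807257 to 148884321 in hg38, minus strand) was at 125, 137 and 129 TPM in untreated H82 and at 160, 153 and 167 TPM with FHD-286. Every treated library was above every untreated one. Its log2 fold change was 0.29 (standard error 0.13, limma BH-adjusted *p* = 0.0818), which did not pass the threshold, and it was 0.78 under the median of ratios (limma BH-adjusted *p* = 0.00154). It was also called without treated replicate 1 (0.29, limma BH-adjusted *p* = 0.0148) and with library weights (0.32, limma BH-adjusted *p* = 0.00594). In H146 *EZH2* was at 162, 137 and 131 TPM without and at 187, 208, 186 and 182 TPM with treatment, again without overlap. It was called higher there by 0.42 on the log2 scale (standard error 0.12, limma BH-adjusted *p* = 0.018), a mean 1.33 times the untreated mean, but not under the median of ratios (0.10, limma BH-adjusted *p* = 0.522) nor without untreated replicate 2 (limma BH-adjusted *p* = 0.0733) or 3 (limma BH-adjusted *p* = 0.0715). Summed TPM of 14 proliferation genes, whose part in the result was not tested, ranged from 2459 to 2517 in untreated and from 1627 to 3084 in treated H82, and from 4223 to 4261 and from 3523 to 4280 in H146. The low end in treated H82 was replicate 1, whereas the other treated libraries of H82 lay above all untreated ones.

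*EZH1* (chromosome 17, 42700275 to 42745049, minus strand), the paralogue of *EZH2* that is known to be used more in resting cells, was at 24.8, 25.0 and 27.2 TPM in untreated H82 and at 20.04, 13.5 and 17.4 TPM with treatment. It was called lower by limma (log2 fold change -0.58, standard error 0.18, adjusted *p* = 0.0255). This call was lost under the median of ratios, where the value was -0.11 (limma BH-adjusted *p* = 0.627), and without treated replicate 2 (-0.44, limma BH-adjusted *p* = 0.0735) or treated replicate 3 or any untreated library. In H146 it was at 25.3, 24.6 and 20.9 TPM without and at 34.1, 57.9, 24.3 and 20.5 TPM with treatment. Treated replicate 2 held the highest level and the groups overlapped, with a log2 fold change of 0.41 (limma BH-adjusted *p* = 0.305).

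The core subunits *SUZ12* and *EED* went in opposite directions in H82. *SUZ12* (chromosome 17, 31937007 to 32001038, plus strand), whose promoter stretch is printed above, was at 74.0, 82.4 and 69.4 TPM in untreated H82 and at 28.6, 41.4 and 43.6 TPM with FHD-286. The lowest untreated library lay well above the highest treated one. *SUZ12* fell by 0.99 on the log2 scale (standard error 0.19, limma BH-adjusted *p* = 0.00397), from 75.3 ± 6.602 to 37.9 ± 8.13 TPM (SD, n = 3 and 3), and by 0.51 under the median of ratios (limma BH-adjusted *p* = 0.0327). The libraries of H146 held 46.3, 49.0 and 43.1 TPM without and 56.5, 41.6, 65.2 and 71.7 TPM with treatment. Treated replicate 2 was below all untreated libraries and the other 3 treated libraries above them, and the log2 fold change was 0.32 (limma BH-adjusted *p* = 0.183), or 0.47 without that library (limma BH-adjusted *p* = 0.0111).

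*EED* (chromosome 11, 86201212 to 86278813, plus strand), which binds the methylated lysine and stimulates the enzyme, was at 14.0, 14.8 and 15.4 TPM in untreated H82 and at 16.9, 29.4 and 26.4 TPM with treatment. All treated libraries were higher, replicate 1 by little. It was called higher (log2 fold change 0.65, standard error 0.22, limma BH-adjusted *p* = 0.0394), and under the median of ratios the value was 1.11 (limma BH-adjusted *p* = 0.00341). The call did not hold without mitochondrial genes (0.51, limma BH-adjusted *p* = 0.0792), nor without treated replicate 2 (0.50, limma BH-adjusted *p* = 0.119), treated replicate 3 or any untreated library. In H146 *EED* was at 26.9, 29.3 and 27.8 TPM without and at 24.5, 20.9, 29.0 and 29.9 TPM with treatment, with a log2 fold change of -0.11 (limma BH-adjusted *p* = 0.555); median-of-ratios scaling gave -0.42 (limma BH-adjusted *p* = 0.0265). A gene on the opposite strand overlaps exons of *EED*, and whether the counting used strand is not stated.

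*JARID2* (chromosome 6, 15246069 to 15522042, plus strand) fell in H82 and rose in H146. It was at 71.4, 66.0 and 68.4 TPM in untreated H82 and at 20.96, 34.5 and 35.8 TPM with FHD-286. In H146 it was at 18.7, 22.0 and 14.8 TPM without and at 34.0, 30.2, 38.3 and 39.8 TPM with treatment. The groups did not overlap in either line, and the treated libraries of H82 and H146 had means of 30.4 ± 8.20 TPM (SD, n = 3) and 35.6 ± 4.35 TPM (SD, n = 4). In H82 *JARID2* fell by 1.19 on the log2 scale (standard error 0.22, limma BH-adjusted *p* = 0.00325), and its log2 fold change in H146 was 0.92 (standard error 0.17, limma BH-adjusted *p* = 0.00269). Median-of-ratios scaling gave -0.70 and 0.61, both called.

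The E3 ligases of PRC1 were higher with treatment in H146, and *RING1* also in H82. *RING1* (chromosome 6, 33208500 to 33212722, plus strand) was at 82.2, 66.2 and 91.2 TPM in untreated H82 and at 145.8, 137 and 121 TPM with FHD-286. In H146 it was at 135, 129 and 156 TPM without and at 206, 183, 234 and 215 TPM with treatment. No treated library overlapped an untreated one. Its log2 fold change was 0.76 in H82 (standard error 0.17, limma BH-adjusted *p* = 0.00681), a mean 1.69 times the untreated mean, and 0.58 in H146 (standard error 0.13, limma BH-adjusted *p* = 0.00628). Under the median of ratios the value was 1.24 in H82 (limma BH-adjusted *p* = 0.00129) and 0.26 in H146, where it was not called (limma BH-adjusted *p* = 0.128).

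*RNF2* (chromosome 1, 185045526 to 185102603, plus strand), also known as RING1B, was at 33.7, 36.5 and 32.4 TPM in untreated H82 and at 52.3, 41.1 and 42.8 TPM with treatment. These groups did not overlap, but the log2 fold change of 0.39 did not pass the threshold (limma BH-adjusted *p* = 0.055), whereas it was called under the median of ratios (0.87, limma BH-adjusted *p* = 0.00323) and without treated replicate 1 (0.29, limma BH-adjusted *p* = 0.0268). In H146 *RNF2* was at 17.8, 16.7 and 14.9 TPM without and at 25.6, 33.8, 31.1 and 33.4 TPM with treatment. It rose there by 0.87 (standard error 0.14, limma BH-adjusted *p* = 0.00162), 1.88 times the untreated mean, and by 0.56 under the median of ratios (limma BH-adjusted *p* = 0.00855). Its pseudogene *RNF2P1*, which could take reads from it, was at most 3.04 TPM in any library.

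*BMI1* (chromosome 10, 22321099 to 22331484, plus strand) had the largest change of the 10 subunits in H146. It was at 14.96, 15.7 and 13.5 TPM in untreated H146 and at 40.3, 36.5, 60.5 and 68.3 TPM with FHD-286. The lowest treated library was far above the highest untreated one. Its log2 fold change was 1.69 (standard error 0.22, limma BH-adjusted *p* = 0.000631), with means of 14.7 ± 1.09 and 51.4 ± 15.5 TPM (SD, n = 3 and 4), or 3.49 times. After median-of-ratios scaling it was 1.39 (limma BH-adjusted *p* = 0.000914). In H82 *BMI1* was at 22.4, 27.97 and 25.9 TPM without and at 19.0, 22.0 and 27.7 TPM with treatment. There the groups overlapped and the log2 fold change was -0.15 (limma BH-adjusted *p* = 0.495), and 0.32 under the median of ratios (limma BH-adjusted *p* = 0.132). Exons of *BMI1* overlap those of the readthrough *COMMD3-BMI1*, which is listed at 0 in all groups.

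Neither chromobox gene among the 10 subunits passed the threshold in either line. *CBX2* (chromosome 17, 79778148 to 79787983, plus strand) was at 67.7, 58.8 and 69.4 TPM in untreated H82 and at 19.98, 51.3 and 50.8 TPM with treatment. In H146 it was at 40.9, 49.9 and 42.9 TPM without and at 62.0, 34.8, 103 and 104 TPM with treatment. The lowest treated library was replicate 1 in H82 and replicate 2 in H146, where the groups overlapped. The log2 fold change was -0.78 in H82 (limma BH-adjusted *p* = 0.0971), or -0.35 without treated replicate 1 (limma BH-adjusted *p* = 0.0175), and 0.64 in H146 (limma BH-adjusted *p* = 0.166), or 0.96 without treated replicate 2 (limma BH-adjusted *p* = 0.00416). *CBX7* (chromosome 22, 39120167 to 39152680, minus strand) had the lowest level of the 10, with 3.39, 4.28 and 3.68 TPM in untreated H82, 3.17, 1.60 and 2.24 TPM in treated H82, 1.42, 1.62 and 1.11 TPM in untreated H146 and 2.18, 1.63, 1.62 and 2.00 TPM in treated H146. Its log2 fold changes on the log2(TPM + 1) scale, which understates changes of low genes, were -0.54 (limma BH-adjusted *p* = 0.0862) and 0.26 (limma BH-adjusted *p* = 0.242). In H82 it was called lower without treated replicate 1 (-0.72, limma BH-adjusted *p* = 0.0218) and with library weights (-0.64, limma BH-adjusted *p* = 0.0116). Under quantile normalization the value for H82 turned to 0.46 (limma BH-adjusted *p* = 0.102). Exons of *CBX7* overlap those of *COX5BP7* on the same strand and of a gene on the opposite strand.

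**Figure D2:**
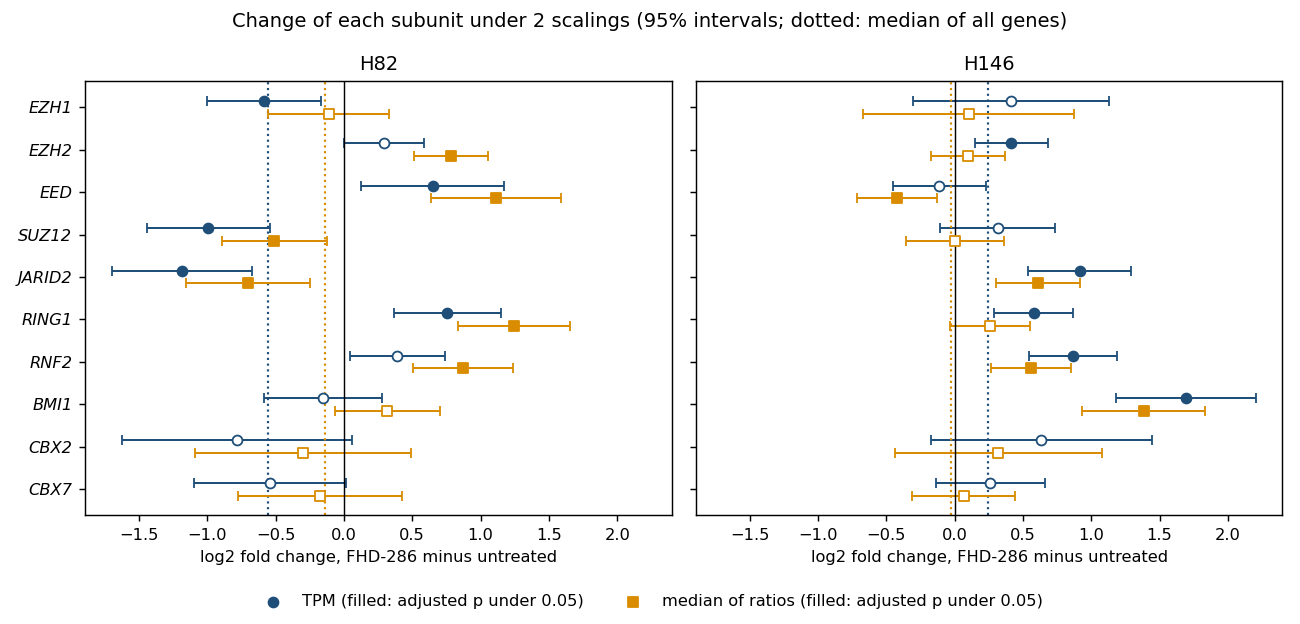
Log2 fold change (FHD-286 minus untreated) of each subunit in H82 and H146 with 95% intervals, for TPM (blue circles) and after median-of-ratios scaling (orange squares); filled symbols passed an adjusted p of 0.05 and dotted lines mark the median of all genes tested. In H82 *SUZ12* and *JARID2* lie below 0 and *EED* and *RING1* above 0 under both scalings, all filled. In H146 *JARID2*, *RNF2* and *BMI1* lie above 0 under both scalings, all filled.

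An interaction term of a joint limma fit over the 13 libraries asked whether both lines responded alike. The difference passed the threshold for 8 of 10 subunits, beside 60.2% of all genes, and for 5 under the median of ratios, beside 57.2%. The change in H82 minus that in H146 was -2.10 for *JARID2* (95% interval -2.70 to -1.50, limma BH-adjusted *p* = 4.86e-05) and -1.85 for *BMI1* (limma BH-adjusted *p* = 0.000273). It was -1.31 for *SUZ12* (limma BH-adjusted *p* = 0.00138) and 0.76 for *EED* (limma BH-adjusted *p* = 0.0241). Under the median of ratios the values were -1.31 for *JARID2*, -1.07 for *BMI1* and 1.54 for *EED*, all called, whereas *SUZ12* was not (-0.51, limma BH-adjusted *p* = 0.0777). The differences of *EZH1*, *RNF2*, *CBX2* and *CBX7* were called on TPM only, and with the median of ratios that of *RNF2* changed sign, to 0.31. *EZH2* and *RING1* showed the reverse, with no call on TPM (-0.12, 95% interval -0.47 to 0.22, and 0.18, 95% interval -0.26 to 0.62) and calls under the median of ratios (0.68 and 0.98).

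Within-library ratios and shares do not depend on the scaling between libraries. They were chosen after the values had been seen, and 5 of them were compared in each line, 10 comparisons in all, on the log2 scale with an exact permutation test (two-sided). With 3 against 3 libraries the smallest possible *p* is 0.1 and with 3 against 4 it is 0.0571, so no comparison could pass 0.05, and the lowest adjusted *p* was 0.163. The ratio of *SUZ12* to *EED*, the 2 core subunits, was 4.51 to 5.59 in untreated H82 and 1.41 to 1.69 with FHD-286. In H146 it was 1.55 to 1.72 without and 1.99 to 2.40 with treatment. Both lines thus showed no overlap, in opposite directions. The ratio of *JARID2* to *EZH2* went from 0.481 to 0.569 down to 0.131 to 0.225 in H82 without overlap, whereas in H146 the ranges of 0.113 to 0.160 and 0.145 to 0.219 overlapped. *EZH2* was 4.73 to 5.49 times *EZH1* in untreated H82 and 7.98 to 11.3 times in treated H82. In H146 this ratio overlapped, at 5.59 to 6.40 and 3.596 to 8.87. *RING1* over *RNF2* overlapped in both lines.

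PRC1 complexes differ by their PCGF subunit, and those with *BMI1* or *PCGF2* are the canonical ones that can carry a CBX protein. *BMI1* made up 11.4% to 13.4% of the summed TPM of the 6 PCGF genes in untreated H82 and 9.11% to 10.5% with treatment. In H146 its share was 3.30% to 3.996% without and 9.63% to 18.6% with treatment. *PCGF1*, the subunit of a non-canonical complex with *BCOR* and *KDM2B*, moved the other way. In H82 it rose by 1.05 on the log2 scale, from 43.8 to 93.4 TPM (limma BH-adjusted *p* = 0.00347), and fell by 1.09 in H146, from 126.7 to 61.5 TPM (limma BH-adjusted *p* = 0.00645), also under the median of ratios. The 6 genes together came to 196 to 209 TPM in untreated H82 and 199.7 to 263 TPM with treatment, and to 391.8 to 419 TPM and 301 to 378 TPM in H146.

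**Figure D3:**
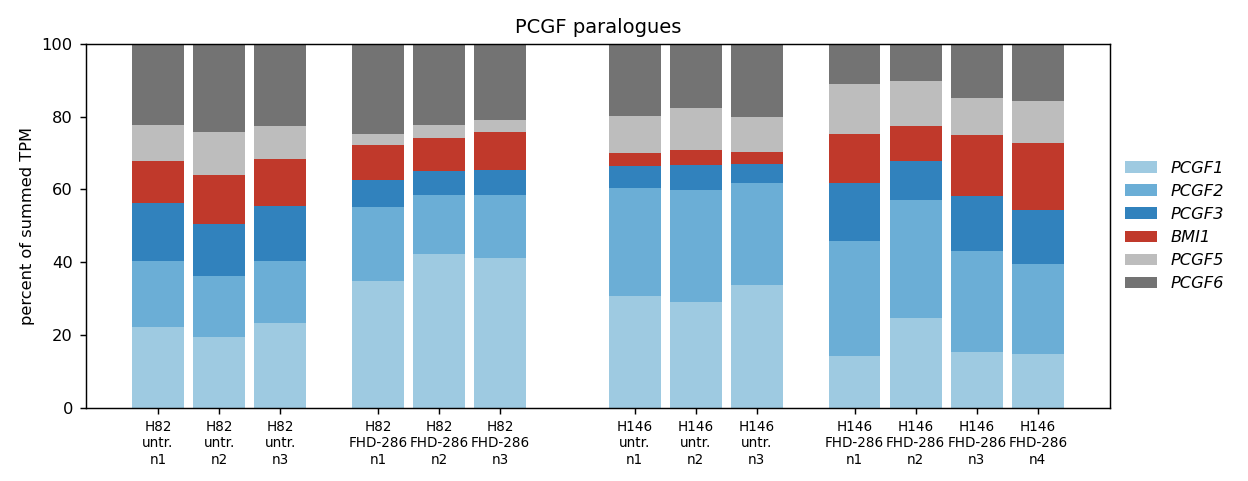
Share of each paralogue in the summed TPM of the 6 PCGF genes in each of the 13 libraries, as stacked bars that add to 100%. *BMI1* (red) grows from at most 3.996% to at least 9.63% in H146 with FHD-286, while *PCGF1* (lightest blue) grows in H82 and shrinks in H146.

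The other PRC2 subunits, 9 genes of which 8 were tested, gave 5 lower and 0 higher in H82 by limma (also 0 higher at an unadjusted *p* under 0.05) and 2 lower and 1 higher in H146. Median-of-ratios scaling called 3 of them lower and 2 higher in H82, and 2 lower in H146, where the higher call was lost. Of all genes, 45.5% were lower and 13.1% higher in H82 on TPM, and 15.5% and 32.5% in H146. Under the median of ratios these shares were 32.9% and 24.2% in H82, and 25.1% and 21.3% in H146. The 8 tested genes had median log2 fold changes of -0.62 and 0.09, near those of all genes. *LCOR*, which carries a PRC2-binding product in some of its transcripts, had the largest fall in H82, from 20.7 to 3.83 TPM (-2.18, limma BH-adjusted *p* = 0.000317), and was at 6.70 and 7.40 TPM in H146. *PHF19*, a Polycomb-like subunit that reads a methyl mark, fell in both lines, by 1.86 in H82 and by 0.60 in H146. Its paralogue *MTF2* was called lower in H82 (-0.92) and higher in H146 (0.49, not called under the median of ratios nor without untreated replicate 1 or 3 or treated replicate 3).

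The other PRC1 subunits, 21 genes, all tested, gave 11 lower and 2 higher in H82 and 4 lower and 5 higher in H146, with medians of -0.62 and 0.12. Of all genes, 45.5% were lower and 13.1% higher in H82, and 15.5% and 32.5% in H146. Under the median of ratios the counts were 8 lower and 5 higher in H82 and 7 lower and 4 higher in H146. The shares of all genes there were 32.9% and 24.2% in H82, and 25.1% and 21.3% in H146. *PHC3*, a polyhomeotic subunit of canonical PRC1, had the largest fall in H82 (-1.83, limma BH-adjusted *p* = 0.000317). *SCML2*, a subunit with MBT repeats, fell from 132.2 to 58.9 TPM in H82 (-1.16) and rose from 25.9 to 58.4 TPM in H146 (1.15). *PCGF3*, of a non-canonical complex, fell by 0.88 in H82 and rose by 0.95 in H146. These calls of *SCML2* and *PCGF3* were made under both scalings. The difference between the lines was called for 16 of the 21 genes, 11 with the lower value in H82 and 5 with the higher one. It was called for 9 under the median of ratios. Of all genes it was called for 60.2% on TPM and 57.2% under the median of ratios.

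Enzymes that remove the Polycomb marks were listed for contrast: the H3K27 demethylases *KDM6A* and *KDM6B* and the H2A deubiquitinase *BAP1* with its partners. Of 9 tested in H82, 7 were lower and 0 higher by limma (0 higher also at an unadjusted *p* under 0.05 and under the median of ratios). In H146, of 10 tested, 0 were lower (0 at an unadjusted *p* under 0.05) and 4 were higher. These counts stand beside 45.5% of all genes lower in H82 and 32.5% higher in H146. With the median of ratios 4 were lower in H82, beside 32.9% of all genes. In H146, 1 was lower and 2 were higher, beside 25.1% and 21.3% of all genes. Medians were -0.69 and 0.33. The log2 fold change of *KDM6A* was -0.69 in H82 and 0.64 in H146, that of *KDM6B* was -0.55 and 0.57, and none of these 4 was called under the median of ratios. Without untreated replicate 3 of H146 the values there were 0.45 and 0.42, neither called, and *KDM6B* in H82 was not called without untreated replicate 1 or 3 or treated replicate 2 or 3. *ASXL2*, a BAP1 cofactor, had the largest fall in H82 (-1.82), and *ASXL3*, its paralogue, the largest rise in H146 (1.11), both called under either scaling.

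Of 17 genes that are textbook targets of Polycomb silencing, 6 were tested in H82, with 2 lower and 2 higher, and 9 in H146, with 2 lower and 4 higher. Of all genes, 45.5% were lower and 13.1% higher in H82, and 15.5% and 32.5% in H146. Median-of-ratios scaling gave 2 lower and 3 higher in H82, beside 32.9% and 24.2% of all genes. In H146 it gave 4 lower and 2 higher, beside 25.1% and 21.3%. *CDKN2A*, the cell cycle inhibitor locus that *BMI1* is known to repress, was called higher in both lines. It went from 78.8 to 275.9 TPM in H82 (1.80, limma BH-adjusted *p* = 0.000222). The call in H146, from 449 to 620 TPM (0.47, limma BH-adjusted *p* = 0.0427), was lost under the median of ratios (0.15, limma BH-adjusted *p* = 0.500) and without untreated replicate 1 or 2 or treated replicate 1, 3 or 4. Its neighbour *CDKN2B*, also a cell cycle inhibitor, had the largest rise of the list in H146, from 8.64 to 22.9 TPM (1.32, limma BH-adjusted *p* = 0.00109), and was at 2.99 and 3.21 TPM in H82 (-0.01, and 0.36 under the median of ratios, neither called). The muscle factor *MYOD1* fell in H82 from 7.72 to 0.739 TPM (-2.34), and the endoderm factor *GATA6* fell in H146 from 36.2 to 11.8 TPM (-1.53). *EN1* in H82 and *HOXA9* in H146 reached 1 TPM only with treatment, and *MYOD1* in H82 only without it. The filter admitted these genes through the group where they were higher, so their calls are no separate evidence of a change. The list held called genes in both directions in each line, as did all genes, and 11 of its 17 genes in H82 and 8 in H146 were too low to be tested.

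**Figure D4:**
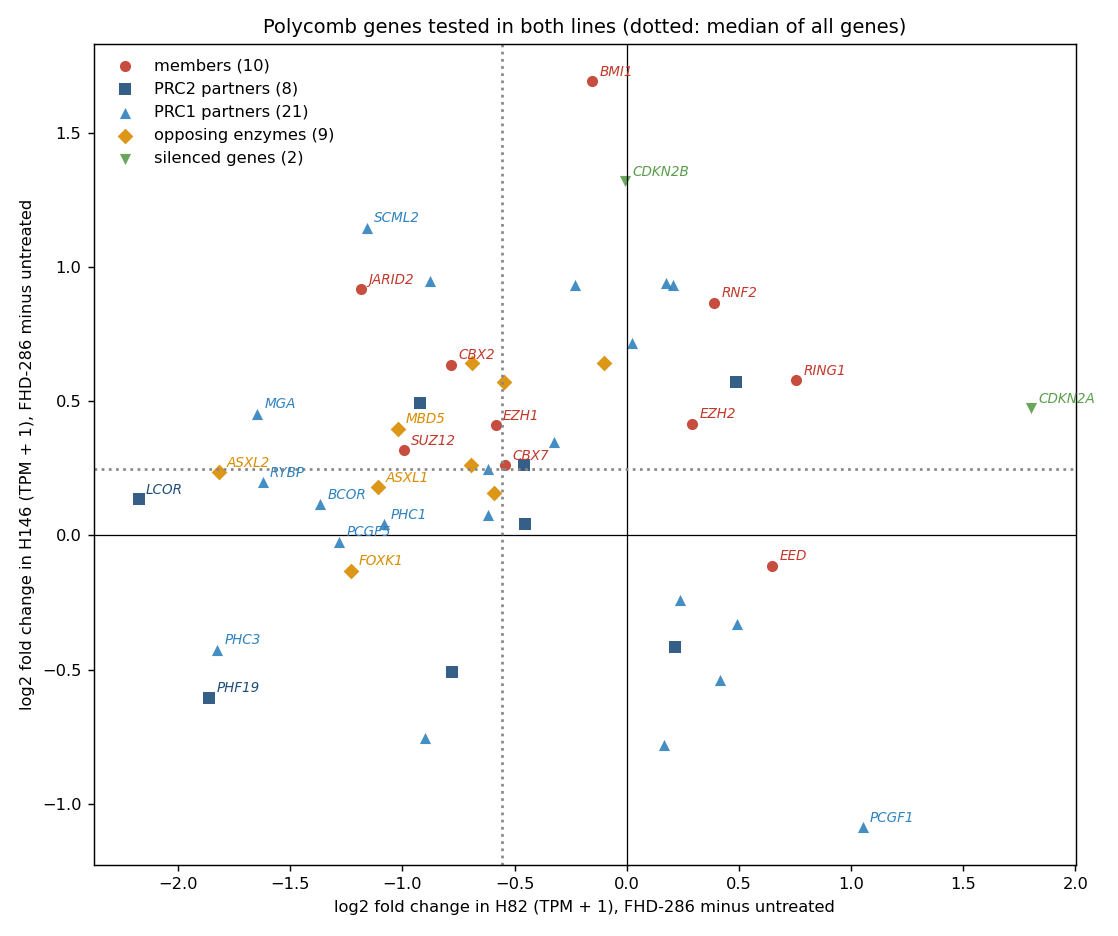
Log2 fold change in H82 (horizontal) against that in H146 (vertical) for subunits and listed genes tested in both lines, with dotted lines at the median of all genes. *BMI1*, *JARID2* and *SCML2* lie at the upper left and *PCGF1* at the lower right.

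The genes of the drug's targets were measured as well. *SMARCA4* had means of 73.9 TPM without and 83.2 TPM with treatment in H82 (0.11, limma BH-adjusted *p* = 0.752, or 0.43 without treated replicate 1, limma BH-adjusted *p* = 0.0311) and was higher in treated H146, at 165.5 against 99.4 TPM (0.73, limma BH-adjusted *p* = 0.00121). *SMARCA2* was at 5.28 and 4.35 TPM in H82 (-0.24, and 0.17 under the median of ratios, not called by limma in either) and lower in treated H146, at 8.16 against 13.9 TPM (-0.70, limma BH-adjusted *p* = 0.00597). Inhibition of the ATPases need not change their RNA. Of 14 proliferation genes, 1 was lower and 1 higher in H82 (*MKI67*, -2.23, and *TYMS*, 0.98), and 3 were lower and 2 higher in H146, led by *E2F1* (-1.11) and *BIRC5* (0.78, not called under the median of ratios). On TPM, 45.5% of all genes were lower and 13.1% higher in H82, and 15.5% and 32.5% in H146. Median-of-ratios scaling gave 1 lower and 6 higher in H82, and 6 lower in H146 with both higher calls lost. The shares of all genes there were 32.9% and 24.2% in H82, and 25.1% and 21.3% in H146. Quantile normalization gave 5 lower and 2 higher in H82. *MKI67* was at 9.11, 40.2 and 50.8 TPM in treated H82 replicates 1, 2 and 3. The call of *TYMS* was lost without any library but treated replicate 1, that of *MKI67* without untreated replicate 2 (limma BH-adjusted *p* = 0.0506), and that of *BIRC5* without any untreated library or treated replicate 3 or 4.

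By mean TPM the order of the subunits in untreated H82 was *EZH2* at 130.4, *RING1* at 79.9, *SUZ12* at 75.3, *JARID2* at 68.6, *CBX2* at 65.3, *RNF2* at 34.2, *EZH1* at 25.7, *BMI1* at 25.4, *EED* at 14.7 and *CBX7* at 3.78. The libraries of neighbours from *RING1* to *CBX2* overlapped, as did those of *EZH1* and *BMI1*. In untreated H146 it was *EZH2* at 143.2, *RING1* at 139.9, *SUZ12* at 46.1, *CBX2* at 44.6, *EED* at 28.02, *EZH1* at 23.6, *JARID2* at 18.5, *RNF2* at 16.5, *BMI1* at 14.7 and *CBX7* at 1.39. There *EZH2* and *RING1* overlapped, as did *SUZ12* and *CBX2*, and each neighbour from *EZH1* to *BMI1*.

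Likeness to the catalytic subunits was described by Pearson's correlation over all 13 libraries, among 15679 genes tested in both lines. Each log2(TPM + 1) value was taken as its deviation from the mean of the untreated libraries of its line. The difference in level between the lines is thereby removed, while any difference in their response to treatment is kept. The 5 genes most like *EZH1* were *ZSWIM8* (0.97), *SIDT2*, *PRPF40B*, *PHF21A* and *TBX19* (0.95). Those most like *EZH2* were *BCL11A* (0.94), *C8orf37*, *ATL3*, *LRRIQ1* and *GPAT3* (0.93). None is a Polycomb subunit of the lists used here.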

How the data were processed

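RNA was sequenced in 13 libraries of H82 and H146. Per the submitters' processing notes, the authors used Trim Galore 0.4.4, STAR and hg38, and they deposited 1 table of TPM values per line, with no further scaling between libraries. DESeq2, which they used for their own comparison, was not run here, since no counts were analysed. Tables were read in Python 3.11.15 and fitted by limma 3.58.1 under R 4.3.3 (functions lmFit and eBayes, trend on) on log2(TPM + 1), treated against untreated within each line, and as an interaction over both lines. A gene was tested where 3 or more libraries of the line reached 1 TPM. Coordinates are from GENCODE release 44 on hg38, and promoters from RefSeq on GRCh38.p14. The 10 subunits, the gene lists and the tests were chosen with earlier results of these data known. Named are all subunits, both drug targets, and from each list the largest called rise and fall in each line and up to 3 genes called in both. Values of *INSM1* and *EPCAM* in single libraries were chosen after they were seen, and *EN1* and *HOXA9* were named after their values were seen. Alternatives were a pseudocount of 0.1, no filter, a mean TPM above 2, median of ratios, quantile normalization, removal of mitochondrial genes, library weights, eBayes without trend, a block for the replicate number and each library left out in turn. Ratios and shares were added later. Some listed genes are not reported here and were left out of the counts of their lists. On simulated data with the sizes of each line, limma recovered most of the changes of 3 on the log2 scale and a minority of those of 1. Far fewer genes were changed in the simulation than were called in these data. The share recovered there therefore does not carry over to the tests above.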

Additional observations from a re-analysis of the deposited data

Results flagged for a closer look

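The change with FHD-286 differed between H82 and H146 for 8 subunits by limma's interaction test, beside 60.2% of all genes. Given as the change in H82 minus that in H146 on the log2 scale, the differences were -2.10 for *JARID2*, -1.85 for *BMI1*, -1.42 for *CBX2*, -1.31 for *SUZ12*, -0.99 for *EZH1*, -0.80 for *CBX7*, -0.48 for *RNF2* and 0.76 for *EED*. The limma adjusted *p* was 0.0411 for *CBX2*, 0.0485 for *EZH1* and 0.0497 for *RNF2*, so these 3 lay just past the threshold. With a library left out in turn they held in 3, 4 and 2 of 13 fits. The call of *EED* was lost without H82 untreated replicate 1, H82 treated replicate 2 or 3 or H146 untreated replicate 2, and that of *CBX7* without replicate 2 of either H82 group or H146 untreated replicate 3. Those of *JARID2*, *BMI1* and *SUZ12* were called with each of the 13 libraries left out in turn, at adjusted *p* values of at most 0.000294, 0.00128 and 0.00535 in limma. Those of *JARID2*, *BMI1* and *EED* were also called under the median of ratios. The median of all genes moved with treatment in both lines, and the mitochondrial share moved without overlap in H82 but overlapped between the groups of H146; their part in these differences was not tested. The treated H146 libraries were the only group of 4. None stood apart from the others by Dixon's criterion in any of the 10 subunits or 5 ratios and shares. The criterion takes each measure alone, so it cannot show a library that is extreme across many genes. Treated H146 replicate 2 was the lowest of the 4 for *EED*, *SUZ12*, *JARID2*, *RING1*, *BMI1* and *CBX2*. It was the highest for *EZH1*, *EZH2* and *RNF2*.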

How the results depend on the processing

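The calls of *SUZ12*, *JARID2* and *RING1* in H82 and of *JARID2*, *RNF2* and *BMI1* in H146 kept their direction and their side of the threshold under every alternative run. The number of subunits called lower in H82, 3, was 5 with library weights and 2 to 5 with a library left out, and the number called higher, 2, was 1 with no filter, 4 with the median of ratios, 1 without mitochondrial genes, 4 with library weights and 1 to 4 with a library left out. In H146 the median of ratios gave 1 lower and 3 higher, and leaving out a library gave 0 lower and 4 to 7 higher. Subunits that differed between the lines, 8, numbered 5 with no filter, 4 with quantile normalization, 5 with the median of ratios, 5 with the replicate block and 4 to 7 with a library left out. For all genes in H82, quantile normalization gave 5547 lower and 5067 higher, the median of ratios 4793 higher, library weights 3975 higher, and leaving out a library 4291 to 9957 lower and 1676 to 3503 higher. For H146 the median of ratios gave 4917 lower and 4165 higher, library weights 4806 lower, and leaving out a library 1812 to 3729 lower and 4287 to 7480 higher.

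Values that turned were those of uncalled changes, the cause of which was not tested. With the median of ratios they were, in H82, *BMI1* 0.32, *E2F1* 0.30, *CDKN2B* 0.36 and *SMARCA2* 0.17, and, in H146, *LCOR* -0.14, *ASXL2* -0.062 and *TYMS* -0.28. With quantile normalization they were *BMI1* 0.21, *CBX7* 0.46, *CDKN2B* 0.99 and *SMARCA2* 0.66, the last 2 now called (H82), and *LCOR* -0.13, *ASXL2* -0.015 and *TYMS* -0.06 (H146). With library weights they were *BMI1* 0.002 in H82, and *EZH1* -0.001 and *EED* 0.04 in H146. *SMARCA4* in H82 was -0.04 without mitochondrial genes. With a library left out, *SMARCA4* in H82 ranged from -0.091 to 0.428 and *CDKN2B* from -0.349 to 0.266, and in H146 *LCOR* ranged from -0.033 to 0.23, *ASXL2* from -0.026 to 0.394 and *TYMS* from -0.003 to 0.091. Differences between the lines that turned were *EZH2* 0.68 and *RNF2* 0.31 with the median of ratios, *EZH2* 0.00 and *RING1* -0.10 with library weights, and *CBX7* 0.46 with quantile normalization; of these, *RNF2* and *CBX7* had been called on TPM.

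Libraries with the same replicate number did not deviate together (correlations -0.111 to 0.027). With so few libraries a group, this cannot show whether they share more than a number. With the replicate block, *EZH1* in H82 and *EZH2* in H146 were no longer called. The missing read depth, the lack of a scaling standard, and 3 or 4 libraries a group limit these values.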
